A study of Mus musculus with 6 samples.

Results

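Sall1, Sall3 and Sall4 are the spalt-like genes described here, taken up as digit genes known to be targets of the HOX13 transcription factors. Their members are the ATAC-seq peaks of the deposited table whose midpoint lies within 500 kb of a transcription start site that GENCODE gives for 1 of the 3 genes. Of the 61954 peaks in the table, 152 met this rule, with 44 around Sall1, 54 around Sall3 and 54 around Sall4. For a protein-coding gene on an autosome the median number of peaks within the same distance was 36, with quartiles of 22 and 51 over 20780 genes. The peaks closest to the limit on its inner side lay 499.2 kb from Sall1, 484.2 kb from Sall3 and 474.9 kb from Sall4, and those closest on its outer side lay at 517.8, 505.1 and 503.2 kb. None of these 6 was called in either direction, with differences between −0.24 and 0.32.

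Spalt-like genes encode nuclear zinc finger proteins that act mostly as repressors and recruit the NuRD complex, a chromatin remodelling and histone deacetylase complex. In the limb bud Sall1, Sall3 and Sall4 are active in the mesenchyme, and human mutations in SALL1 and SALL4 cause Townes-Brocks and Duane-radial ray syndromes, both of which affect the hand. HOXA13 and HOXD13 are the homeodomain factors of the distal limb, where digits form. ATAC-seq marks open chromatin through the insertions of the Tn5 transposase.

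The libraries compared came from the distal part of E11.5 forelimb buds. There were 2 of wild-type embryos and 2 of Hox13-/- embryos with the Hoxa13Str and Hoxd13lacZ null alleles, all on a mixed background of C57Bl/6 and 129. For each library 50000 cells were taken from 1 embryo, left and right buds together, so the inactivation is present in every cell of the embryo and not only in the limb. The values are regularized log (rLog) values of accessibility on a log2 scale, which the authors scaled by library and shrank most where a peak has few reads. A difference is always Hox13-/- minus wild type, with a standard error (SE) from limma fitted to all peaks, and a peak was called lower or higher at an adjusted p under 0.05. In bulk tissue, fewer cells with an open site and a less open site in each cell cannot be told apart.

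The sequences shown here are the 200 bp around the midpoint of 7 of the called peaks at Sall1 and Sall4, on the plus strand of the mm10 genome. Capitals mark a match to CAATAAA or to the broader YYHRTAAA, in which Y is C or T, H is A, C or T, and R is A or G, on either strand. CAATAAA with a C or T before it is also a match to the broader motif. The 3 peaks called lower each hold at least 1 match, and of the 4 called higher 1 does, the peak 497.3 kb upstream of Sall1. These windows do not stand for all called peaks, since 4 of the 6 higher windows of Sall1 held a match to the broader motif and 2 of the 6 lower windows of Sall3 did. The higher peak 447.2 kb upstream of Sall1 is not shown, and its window holds a match. That of the higher peak 311.7 kb downstream of Sall4, also not shown, holds none. The counts of matches therefore depend on which windows are shown. Sall1 lies at chr8:89027235-89044162 and Sall4 at chr2:168748332-168767943, both on the minus strand, and all of these windows lie outside their gene bodies.
Sall1 497.3 kb upstream, higher, chr8:89541350-89541549: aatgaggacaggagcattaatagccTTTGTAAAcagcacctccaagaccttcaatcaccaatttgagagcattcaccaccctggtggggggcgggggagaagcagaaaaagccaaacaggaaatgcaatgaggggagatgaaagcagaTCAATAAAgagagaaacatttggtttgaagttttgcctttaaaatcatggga
Sall1 415.6 kb upstream, lower, chr8:89459647-89459846: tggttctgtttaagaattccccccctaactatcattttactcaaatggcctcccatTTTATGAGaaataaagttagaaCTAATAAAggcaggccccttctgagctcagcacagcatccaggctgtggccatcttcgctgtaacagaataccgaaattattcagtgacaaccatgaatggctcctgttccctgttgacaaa
Sall1 148.8 kb upstream, lower, chr8:89192889-89193088: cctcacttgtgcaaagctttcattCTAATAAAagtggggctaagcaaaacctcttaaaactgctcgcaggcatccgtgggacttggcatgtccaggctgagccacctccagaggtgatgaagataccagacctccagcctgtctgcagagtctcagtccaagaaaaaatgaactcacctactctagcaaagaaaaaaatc
Sall1 64.1 kb upstream, higher, chr8:89108151-89108350: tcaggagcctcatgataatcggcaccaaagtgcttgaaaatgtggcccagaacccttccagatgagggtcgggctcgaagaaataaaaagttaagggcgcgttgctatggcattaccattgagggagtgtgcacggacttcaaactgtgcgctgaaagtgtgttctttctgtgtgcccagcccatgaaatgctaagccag
Sall4 64.1 kb upstream, higher, chr2:168831920-168832119: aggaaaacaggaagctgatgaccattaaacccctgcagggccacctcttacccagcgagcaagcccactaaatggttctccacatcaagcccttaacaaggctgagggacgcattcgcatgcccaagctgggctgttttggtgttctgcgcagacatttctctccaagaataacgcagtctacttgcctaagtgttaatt
Sall4 86.2 kb downstream, higher, chr2:168669600-168669799: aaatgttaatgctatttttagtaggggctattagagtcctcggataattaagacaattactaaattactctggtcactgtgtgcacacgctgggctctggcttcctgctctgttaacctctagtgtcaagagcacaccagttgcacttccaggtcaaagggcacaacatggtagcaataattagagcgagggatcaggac
Sall4 282.8 kb downstream, lower, chr2:168472995-168473194: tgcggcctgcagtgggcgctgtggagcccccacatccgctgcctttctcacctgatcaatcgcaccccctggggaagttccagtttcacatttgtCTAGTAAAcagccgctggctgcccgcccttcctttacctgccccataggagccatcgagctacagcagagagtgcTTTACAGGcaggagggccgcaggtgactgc

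Chromatin accessibility near the spalt-like genes changed in both directions. Of the 33 peaks called, 32 lay outside the start sites and bodies of the 3 genes. Most peaks lay there in any case, since only 14 of all 152 were at start sites or in bodies. Of the 152 peaks, 22 were called higher in Hox13-/- distal limbs and 11 lower, where 11.4% of all 61954 peaks were called higher and 8.31% lower. That is 14.5% and 7.24% of the Sall peaks, both near the shares over the whole table. The median difference of the Sall peaks was 0.08, against −0.01 over all peaks. In all 33 called peaks the wild-type and the Hox13-/- libraries did not overlap. Only 1 peak, at Sall1, also differed by more than 1 on the log2 scale, and it was higher. Among all peaks 0.313% were called higher and 0.224% lower with this added threshold.

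By gene, Sall1 had 6 peaks called higher and 4 lower, Sall3 had 10 and 6, and Sall4 had 6 and 1. The median coding gene had 2 of each within 500 kb, with quartiles of 1 and 4. It had 36 peaks in that window, against 44 to 54 at the Sall genes. As shares, 13.6% of the Sall1 peaks were called higher and 9.09% lower. At Sall3 these were 18.5% and 11.1%, at Sall4 11.1% and 1.85%, and over all peaks 11.4% and 8.31%. The split depends on how the libraries are scaled, since with each library centred on its median rLog 18 of the Sall peaks were called higher and 15 lower. It moved the same way over all peaks, from 7040 higher and 5146 lower to 6017 and 6811 with this centring. The numbers called over all peaks also fell whichever library was left out, so such losses are not particular to the Sall peaks. Leaving out 1 library left 11 to 17 called higher and 3 to 6 lower, and each of the 4 libraries lowered the number called lower by more than 1.5 times. The fewest were called lower without Hox13-/- replicate 1, at 3, followed by 4 without wild-type replicate 1 and 6 without either of the other two. The number called higher fell by that much without wild-type replicate 1, to 11, without wild-type replicate 2, to 14, and without Hox13-/- replicate 1, to 12. Of the 33 called peaks, 10 stayed called whichever library was left out, and 27 stayed called under all 3 other scalings.

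**Figure D1:**
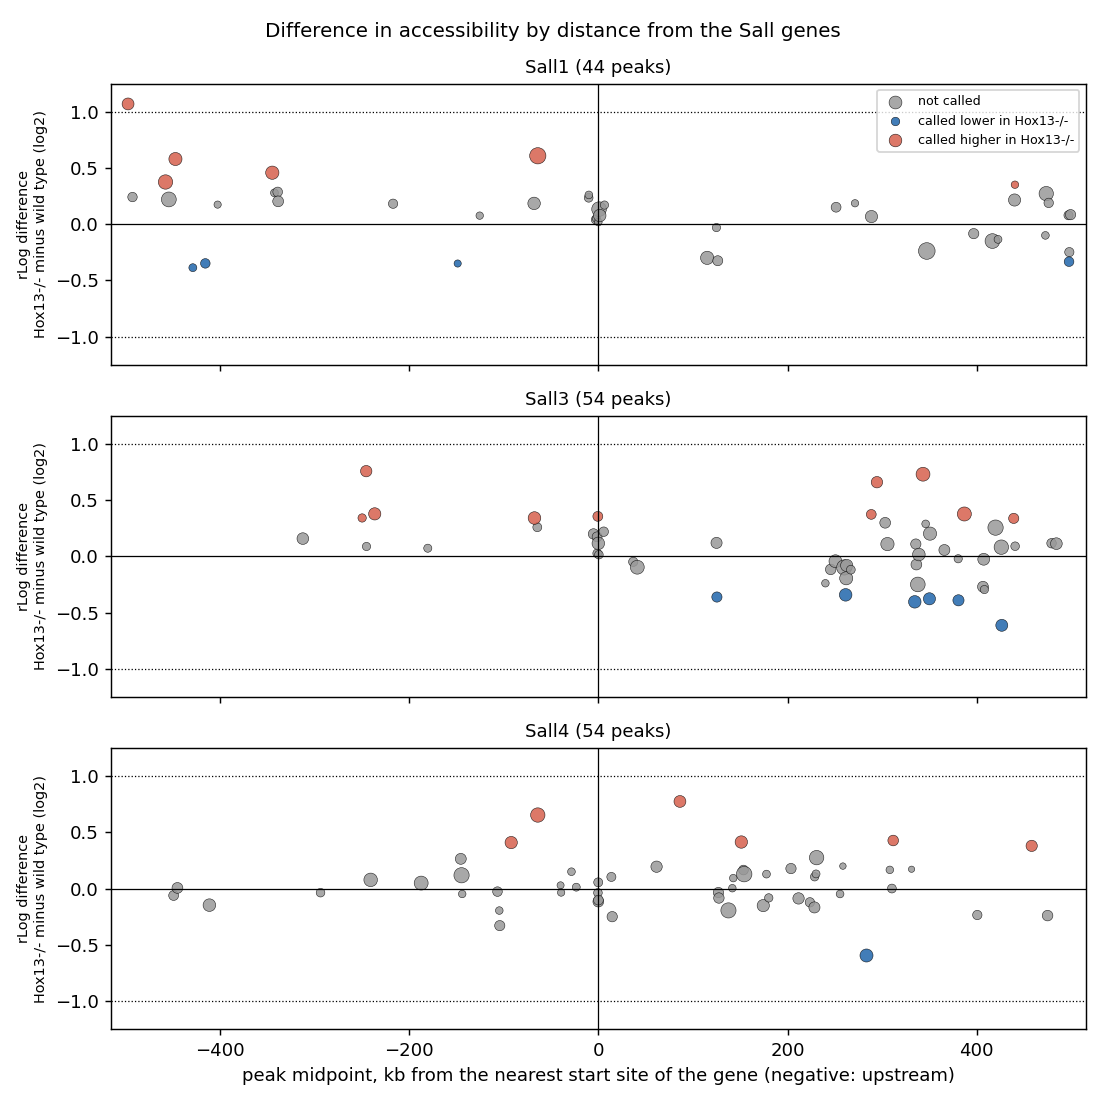
Difference in rLog between Hox13-/- and wild type (vertical axis, log2 scale) against the distance of the peak midpoint from the nearest start site of the gene (horizontal axis, kb, upstream negative) for the 44, 54 and 54 peaks of Sall1, Sall3 and Sall4. Larger points have a higher mean rLog and dotted lines mark a difference of 1. Called peaks are coloured, and those called lower all lie more than 100 kb from the gene.

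Sall1 encodes the spalt protein mutated in Townes-Brocks syndrome, and the interval upstream of the mouse gene holds no coding gene start within 500 kb. The 22 peaks upstream held 5 of its 6 peaks called higher and 3 of its 4 called lower, or 22.7% and 13.6%. Over all peaks 11.4% were called higher and 8.31% lower. Of all peaks 250 to 500 kb from their nearest coding start site it was 22.7% and 9.10%. The 22 Sall1 peaks downstream held 1 called in each direction, and the 2 sides were not tested against each other. The peak farthest upstream, 497.3 kb away at chr8:89541194-89541704, read 5.05 and 4.78 in wild type against 6.04 and 5.93 in Hox13-/-. Its difference of 1.07 (SE 0.130, limma adjusted p = 6.2e-14, n = 2 per genotype) is a 2.1-fold increase in rLog. Among the Sall peaks only this one passed a fold change of 2 in these values. Since rLog values are shrunk, they can understate a fold change, and the fold changes that the authors deposited were not used. Both Hox13-/- libraries had it in their peak lists and the wild-type libraries did not. When single libraries were left out the difference ranged from 0.94 to 1.2.

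The strongest called peak of Sall1 lay 64.1 kb upstream, at chr8:89107623-89108877, and was listed as a peak in all 4 libraries. Its values were 7.87 and 7.64 in wild type against 8.34 and 8.39 in Hox13-/-, a difference of 0.61 (SE 0.123, limma adjusted p = 1.9e-05). The peak 447.2 kb upstream, at chr8:89491177-89491643, had 5.70 and 6.02 in wild type against 6.52 and 6.36 in Hox13-/-. There the difference was 0.58 (SE 0.129, limma adjusted p = 1.3e-04). Both kept their call in every alternative fit, though neither differed by more than 1. The 3 remaining peaks called higher lay 457.7 kb upstream, 344.8 kb upstream and 440.4 kb downstream, with differences of 0.38, 0.46 and 0.35. They were named after their values were seen. Leaving out single libraries moved them between 0.20 and 0.55, 0.41 and 0.51, and 0.20 and 0.50, and each lost its call without at least 1 library.

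Of the 4 Sall1 peaks called lower, the 3 described here were weak sites. The peak 415.6 kb upstream (chr8:89459623-89459869) read 4.33 and 4.28 in wild type against 3.98 and 3.93 in Hox13-/-, a difference of −0.35 (limma adjusted p = 0.038). This site stands between the higher peaks at 447.2 and 344.8 kb. The peak 148.8 kb upstream (chr8:89192902-89193075), read 3.21 and 2.81 in wild type against 2.64 and 2.69 in Hox13-/-, a difference of −0.35 (limma adjusted p = 0.011). Another, 497.6 kb downstream inside Nkd1, differed by −0.33 and was named after its values were seen. Leaving out single libraries moved it between −0.49 and −0.18, and its call was lost without wild-type replicate 1, Hox13-/- replicate 1 or Hox13-/- replicate 2 (limma adjusted p up to 0.53). These 3 peaks stood in the peak list of wild-type replicate 1 alone. Neither of those at 415.6 and 148.8 kb kept its call when every library was left out in turn. At 148.8 kb the difference was −0.15 without wild-type replicate 1 (limma adjusted p = 0.49) and −0.32 without Hox13-/- replicate 1 (0.075). At 415.6 kb no library could be spared, with −0.32 and −0.37 without wild-type replicates 1 and 2 and −0.38 and −0.32 without Hox13-/- replicates 1 and 2 (limma adjusted p from 0.095 to 0.18).

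**Figure D2:**
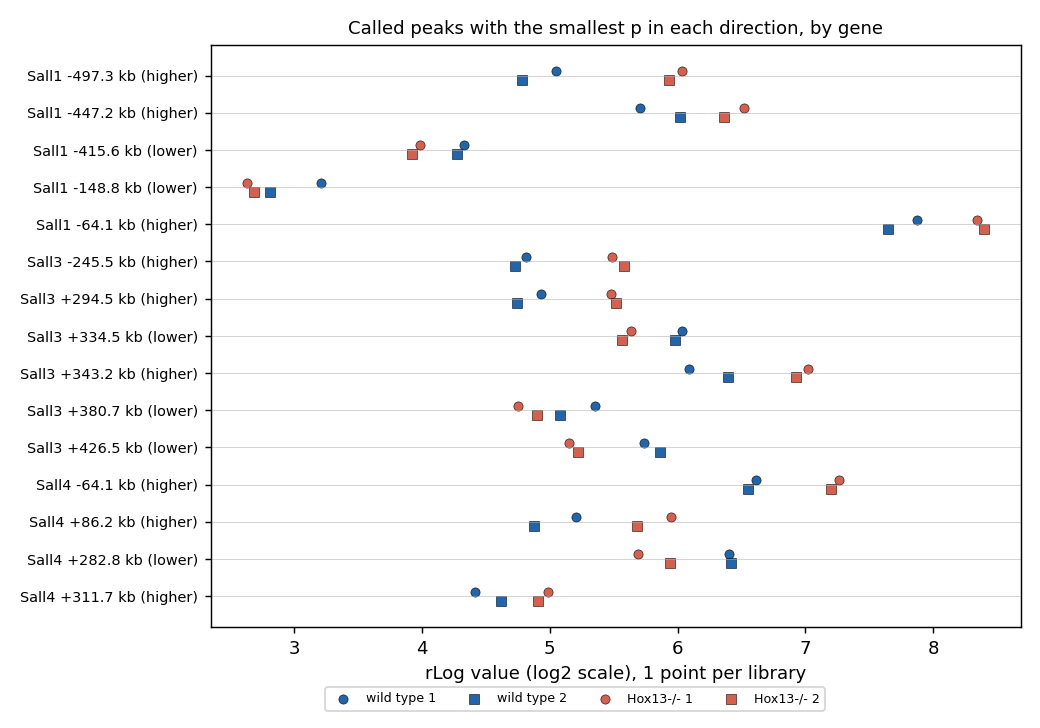
The rLog value (horizontal axis, log2 scale) of each library at 15 called peaks, taken from those with the smallest p in each direction at each gene. Circles are replicate 1 and squares replicate 2, blue for wild type and red for Hox13-/-, and in all of them the colours do not overlap; the gap is widest at the peak 497.3 kb upstream of Sall1.

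Sall4 is best known as a factor of embryonic stem cells, and its human counterpart is mutated in Duane-radial ray syndrome. Its most significant change was an increase 86.2 kb downstream, at chr2:168669393-168670005, within Atp9a and 647 bp from 1 of the start sites annotated for that gene. This peak read 5.20 and 4.88 in wild type against 5.95 and 5.69 in Hox13-/-, so that each Hox13-/- library was above both wild-type libraries. The difference was 0.77 (SE 0.130, limma adjusted p = 1.6e-07), and both Hox13-/- libraries listed the peak while the wild-type libraries did not. The peak 64.1 kb upstream, at chr2:168831579-168832460, was listed in all 4 libraries. It rose from 6.61 and 6.55 to 7.27 and 7.20, a difference of 0.65 (SE 0.127, limma adjusted p = 7.4e-06).

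A further increase at Sall4, 311.7 kb downstream (chr2:168444127-168444422), went from 4.42 and 4.62 in wild type to 4.98 and 4.91 in Hox13-/-, a difference of 0.43 (limma adjusted p = 0.0093). It lost its call without wild-type replicate 1 (0.33, limma adjusted p = 0.18) and without Hox13-/- replicate 1 (0.39, limma adjusted p = 0.091). The other three higher peaks, named after their values were seen, lay 92.2 kb upstream and 151.1 and 458.1 kb downstream, with differences of 0.41, 0.41 and 0.38. They ranged from 0.11 to 0.71, 0.27 to 0.56 and 0.30 to 0.46 when single libraries were left out, and each lost its call without at least 1. The single peak called lower lay 282.8 kb downstream, between Nfatc2 and Kcng1, at chr2:168472871-168473318. Its values fell from 6.40 and 6.42 in wild type to 5.69 and 5.94 in Hox13-/-. The difference of −0.59 (SE 0.129, limma adjusted p = 8.7e-05) did not pass 1 but stayed called in every alternative fit. This peak was listed in all 4 libraries, and its difference ranged from −0.72 to −0.47 when single libraries were left out.

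Sall3, a minus-strand gene of chromosome 18 (80966376 to 80986771), had the most called peaks of the 3 genes, 16. By the nearest of its 2 start sites, 13 of its peaks lay upstream, of which 5 were called higher and 0 lower. The other 41 lay downstream, of which 5 were called higher and 6 lower. The upstream count includes the peaks 5.2, 1.4 and 0.6 kb before the second start site, which lie inside the gene. The last of these is among those called higher. As shares, 38.5% of the upstream peaks were called higher, and 12.2% of the downstream peaks were called higher and 14.6% lower. Over all peaks these were 11.4% and 8.31%. The difference between the sides was not tested. Most of the downstream peaks lie over or beyond Atp9b and Nfatc1, the latter an NFAT transcription factor gene with 17 peaks over its body. The peak 245.5 kb upstream had the smallest p of the gene. It read 4.82 and 4.73 in wild type against 5.49 and 5.58 in Hox13-/-, and the difference was 0.76 (SE 0.131, limma adjusted p = 3.4e-07). It was listed in the Hox13-/- libraries alone.

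Within Nfatc1, the peak 343.2 kb downstream of Sall3 rose from 6.09 and 6.39 in wild type to 7.02 and 6.93 in Hox13-/-, a difference of 0.73 (SE 0.128, limma adjusted p = 4.7e-07). The peak 294.5 kb downstream rose from 4.94 and 4.74 to 5.48 and 5.52, a difference of 0.66 (SE 0.131, limma adjusted p = 1.3e-05). Peaks called lower stood among them. The one 334.5 kb downstream read 6.03 and 5.98 in wild type against 5.64 and 5.57 in Hox13-/-, a difference of −0.40 (limma adjusted p = 0.014). Without wild-type replicate 1 that difference was −0.38 (limma adjusted p = 0.090) and without Hox13-/- replicate 2 it was −0.37 (0.12).

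The largest decrease near Sall3 lay 426.5 kb downstream, where values fell from 5.73 and 5.87 in wild type to 5.15 and 5.22 in Hox13-/-, a difference of −0.61 (SE 0.130, limma adjusted p = 5.9e-05). The peak 380.7 kb downstream read 5.36 and 5.08 against 4.75 and 4.90, a difference of −0.39 (limma adjusted p = 0.020). The latter lost its call without wild-type replicate 1 (−0.25, limma adjusted p = 0.34) and without Hox13-/- replicate 1 (−0.32, 0.19). The other called peaks of Sall3 ranged in difference from −0.38 to 0.38, and each of them lost its call without at least 1 library. Of the Sall3 calls, those at 245.5, 294.5, 343.2 and 426.5 kb held in every alternative fit, though none of them differed by more than 1.

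Each of the 3 genes had a peak called higher at a like distance upstream, 64.1 kb from Sall1, 64.1 kb from Sall4 and 67.6 kb from Sall3. The Sall3 peak was named after its values were seen. It read 5.63 and 5.74 in wild type against 6.04 and 6.01 in Hox13-/-, a difference of 0.34 (SE 0.130, limma adjusted p = 0.044), and is the weakest of the 3. Its call was lost without any 1 of the libraries (0.29 to 0.40, limma adjusted p from 0.069 to 0.23) and under the 3 other scalings (0.29 to 0.32, limma adjusted p from 0.068 to 0.11). Apart from these and from 3 others, no peak within 100 kb of a Sall start site was called. In all 35 peaks lay within that distance, of which 6 were called higher and 0 lower.

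At the genes themselves few peaks were called. There were 14 peaks at the start sites or in the bodies of the 3 genes, and 1 of them was called higher. At Sall1 the peak nearest the GENCODE start site, 0.1 kb upstream, was faint, with values of 3.04 and 3.07 in wild type against 3.05 and 3.10 in Hox13-/-. The strong promoter-side peak lay 0.7 kb inside the first intron as GENCODE draws it (chr8:89042992-89043886), over a start site that RefSeq places at 89043512. It read 6.99 and 7.02 in wild type against 7.18 and 7.10 in Hox13-/-, a difference of 0.13 (SE 0.126, limma adjusted p = 0.48). Another RefSeq start site, at 89042862, falls in the next peak, 1.4 kb inside the gene, which read 5.74 and 5.76 in wild type against 6.01 and 5.65 in Hox13-/-. The faint intronic peak 6.4 kb inside the gene differed by 0.17. For these 4 peaks of Sall1 the limma adjusted p ranged from 0.33 to 0.93.

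The 4 start-site peaks of Sall4 differed by −0.12 to 0.06 and none was called. The one present in all 4 peak lists, 0.1 kb upstream of a start site, read 4.77 and 4.90 in wild type against 4.90 and 4.54 in Hox13-/-. Its neighbour over the next start site had been listed in the wild-type libraries alone, and read 4.32 and 4.33 against 4.27 and 4.17, a difference of −0.10 (SE 0.129, limma adjusted p = 0.62). The 2 peaks at the start site inside the gene had differences of −0.04 and 0.06.

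At Sall3 the peak over the main start site, in its first exon, read 5.78 and 5.74 in wild type against 5.79 and 5.96 in Hox13-/-, a difference of 0.12 (SE 0.130, limma adjusted p = 0.56). The called peak lay in an intron 0.6 kb upstream of the second start site of the gene. It read 4.07 and 4.20 in wild type against 4.61 and 4.38 in Hox13-/-, a difference of 0.36 (SE 0.130, limma adjusted p = 0.035). This call did not survive centring on the median (0.32, limma adjusted p = 0.059), cyclic loess scaling (0.33, 0.056) or the loss of wild-type replicate 1 (0.29, 0.25), wild-type replicate 2 (0.42, 0.064) or Hox13-/- replicate 1 (0.24, 0.33). The other four peaks of the gene, 5.2 and 1.4 kb upstream and 0.5 and 5.6 kb downstream of their nearest start site, differed by 0.20, 0.17, 0.02 and 0.22. The last of them was past the threshold only without wild-type replicate 2 (0.46, limma adjusted p = 0.035).

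**Figure D3:**
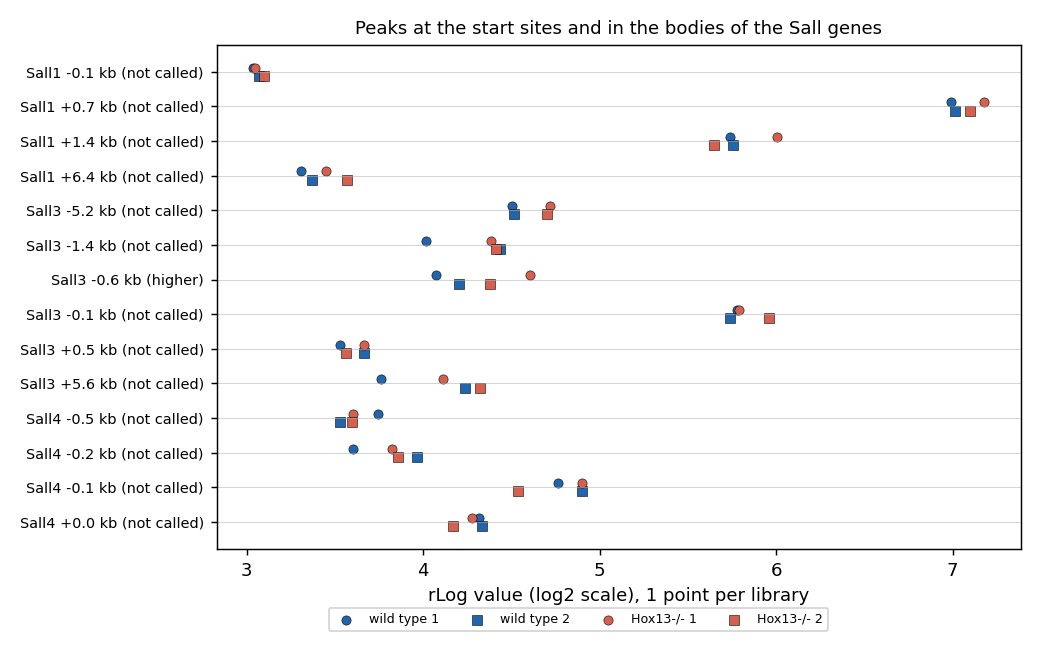
The rLog value of each library (horizontal axis, log2 scale) at the 14 peaks at start sites or in gene bodies, named by their distance in kb from the nearest start site. Circles are replicate 1 and squares replicate 2, blue for wild type and red for Hox13-/-. Values of the 2 genotypes lie close together, and 1 peak, beside the second start site of Sall3, was called.

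The most accessible peak within each window was not at the Sall gene. In the Sall1 window it was the promoter of Cyld, which encodes a deubiquitinase, with 8.43 and 8.41 in wild type against 8.24 and 8.12 in Hox13-/- (difference −0.24, SE 0.122, limma adjusted p = 0.16). In the Sall4 window it was the promoter of Nfatc2, with 7.63 and 7.47 against 7.63 and 7.73 (difference 0.13, SE 0.124, limma adjusted p = 0.49). In the Sall3 window it was a site between genes 419.9 kb downstream, with 7.39 and 7.29 against 7.57 and 7.62 (difference 0.26, SE 0.125, limma adjusted p = 0.14), which passed the threshold with cyclic loess scaling (0.34, limma adjusted p = 0.035).

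Sall3 and Sall4 are each followed downstream by a member of the same gene families, Atp9b and Nfatc1 in the former case and Atp9a and Nfatc2 in the latter. Over Nfatc1 3 of 17 peaks were called higher and 2 lower. Over Nfatc2 none of 13 was called, with differences between −0.17 and 0.28 and with 0 peaks lower and 2 higher at an unadjusted p under 0.05. Over Atp9b 1 of 4 peaks was called lower, and over Atp9a 1 of 4 was called higher. As shares, 17.6% of the Nfatc1 peaks were called higher and 11.8% lower. Among all peaks within a coding gene but not at a promoter, 15.7% were called higher and 8.20% lower. At coding promoters, some of which are among the peaks over these genes, 1.49% were called higher and 8.51% lower. The counts are small and neither pair was tested for a difference, so no contrast between the paralogues is shown.

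By distance, the lower peaks were absent from the first 100 kb and the share called higher had no steady course. Within 10 kb of a Sall start site 1 of 17 peaks was called higher and 0 lower, with a median difference of 0.06. Between 10 and 100 kb the counts were 5 higher and 0 lower of 18 peaks, with a median of 0.19. Between 100 and 250 kb they were 4 and 2 of 41, with a median of 0.05, and between 250 and 500 kb 12 and 9 of 76, with a median of 0.08. Over the whole table, by distance from the nearest coding start site, 4.60%, 15.6%, 20.3% and 22.7% of peaks were called higher in these 4 ranges, and 8.07%, 8.23%, 8.94% and 9.10% lower. These counts are small and were not tested. Of the 152 peaks 100 have another coding gene as the nearest start site, so distance from the Sall gene and distance from any gene are not the same measure. Of the 52 peaks nearest to the Sall gene itself, 11 were called higher and 3 lower, and of the other 100, 11 were called higher and 8 lower.

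**Figure D4:**
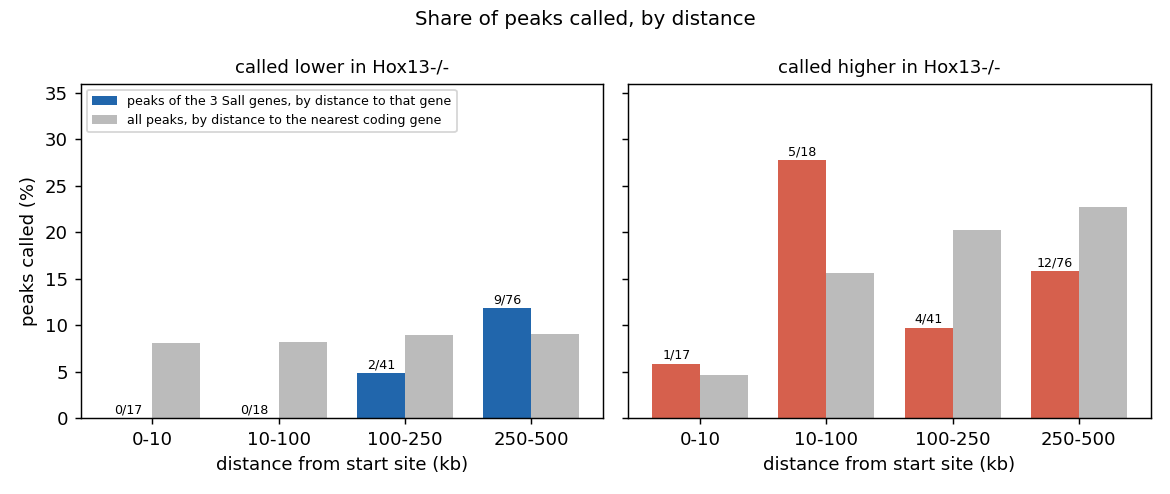
Percent of peaks called lower (left) and higher (right) in 4 ranges of distance from a start site (kb). Coloured bars are the peaks of the 3 Sall genes, with called and total numbers above them, and grey bars are all peaks of the table by distance to their nearest coding gene. No Sall peak within 100 kb was called lower, and in the range from 10 to 100 kb 5 of 18 were called higher.

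By annotation the counts were small and were not tested for a difference. Of the 83 Sall peaks between coding genes 17 were called higher and 6 lower, and of the 36 peaks within another coding gene 3 were called higher and 4 lower. Of the 19 peaks at promoters of other genes 1 was called in each direction. Among all peaks, 15.8% of those between coding genes were called higher and 8.23% lower, of those within a coding gene 15.7% and 8.20%, and of those within 1 kb of a coding start site 1.49% and 8.51%.

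The peak lists of the single libraries, which come from the same reads as the rLog values, ran with the direction of the calls. Of the 22 Sall peaks called higher 12 were listed in Hox13-/- libraries alone, and of the 11 called lower 5 were listed in wild-type libraries alone. The 12 include 10 listed in both Hox13-/- libraries, and the 5 include 1 listed in both wild-type libraries. Over the table these were 3425 of 7040 higher and 1250 of 5146 lower peaks. Of the 20 peaks listed in both Hox13-/- libraries and in no wild-type library, 10 were called higher and 0 lower. The same class over the whole table had 49.4% called higher. The 29 Sall peaks listed in Hox13-/- replicate 2 alone included none called, and that library also contributed the most single-library peaks to the table, 8812 against 1874 to 6555 for each of the others. The share called among those 8812 peaks is not given here, and the part of these list sizes in the results was not tested. Sall peaks called higher had a median length of 416.5 bp, those called lower one of 288 bp and those not called one of 204 bp. Over the table these were 395.5, 315 and 221 bp.

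**Figure D5:**
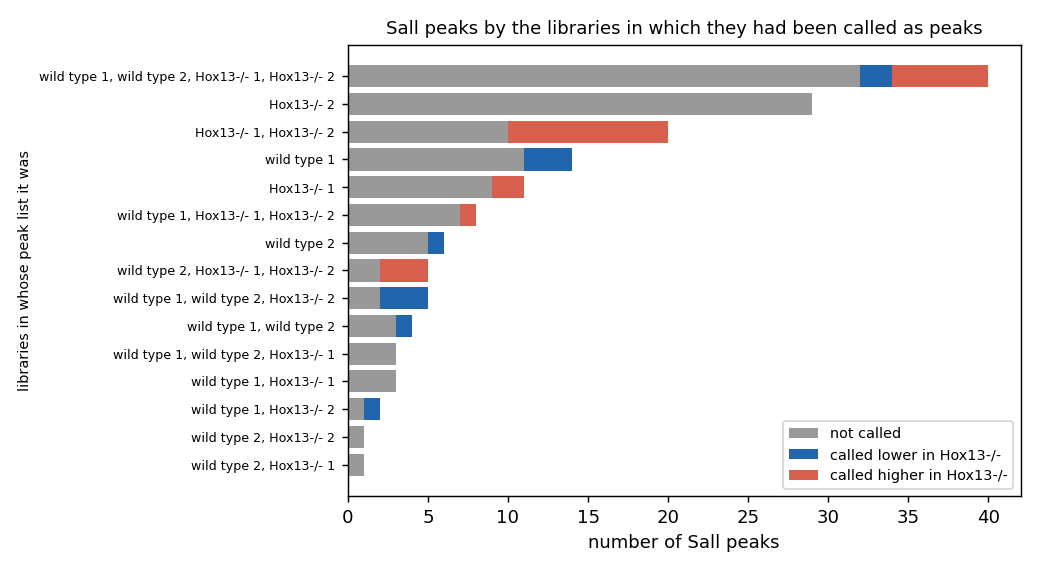
Number of Sall peaks (horizontal axis) for each set of libraries in whose peak lists they stood (vertical axis), coloured by the call of the genotype comparison. Peaks listed in both Hox13-/- libraries alone hold 10 of the 22 peaks called higher, and the 29 listed in Hox13-/- replicate 2 alone hold none. Over the table the former class holds 3425 of 7040. Of peaks listed in any 1 library, 9.76% were called over the table and 10.0% of the 60 Sall peaks. The table share was not split by library.

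The HOX motif was read from the genome and did not enter the choice of peaks. CAATAAA, on either strand of the 200 bp around the midpoint, occurred in 9 of the 152 Sall peaks, or 5.92% (95% Wilson interval 3.15 to 10.9%), where 4.69% of all peaks held it. By call, 1 of 11 lower, 2 of 22 higher and 6 of 119 remaining Sall peaks had a match, and among all peaks 9.76% of the lower, 5.23% of the higher and 4.09% of the remaining ones had one. The broader YYHRTAAA was found in 24.3% of the Sall windows and in 17.8% of all windows. Among the lower Sall peaks 7 of 11 windows held it, against 4 of 22 of the higher ones, and over the table it was in 35.4% of lower and 18.2% of higher windows. By gene, 4 of 4 lower and 4 of 6 higher windows of Sall1 held it, 2 of 6 lower and 0 of 10 higher windows of Sall3, and 1 of 1 lower and 0 of 6 higher windows of Sall4. The capitals in the sequences show the matches in those printed. These are letters in a window and were not tested as binding sites.

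Promoter peaks (the midpoint nearest a start site and within 1 kb) were also read for genes with roles beside the spalt family. Over all coding genes with such a peak 9.97% were called lower and 0.856% higher. The paralogue Sall2 read 4.23 and 4.13 in wild type against 4.21 and 4.26 in Hox13-/- and was not called. Of 9 limb genes linked to Sall function, 8 had a promoter peak, 1 was called lower and 0 higher, with a median difference of 0.08 over the 8. The lower one was Tbx4, a T-box gene of the hindlimb, with 4.35 and 4.13 in wild type against 3.53 and 3.54 in Hox13-/-, a difference of −0.71 (SE 0.126, limma adjusted p = 8.0e-07). Tbx5, the forelimb T-box gene, differed by 0.11, Gli3, the repressor of Hedgehog signalling, by 0.00, Zbtb16 by 0.05, Irx3 by 0.16, Irx5 by 0.03 and Hand2 by 0.16. Fgf10, the mesenchymal growth factor, read 4.87 and 4.89 against 5.18 and 5.24, a difference of 0.33 (SE 0.131, limma adjusted p = 0.058), which passed the threshold in limma without the variance trend (adjusted p = 0.044). Shh had no peak at its start site.

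Of 10 genes for subunits of the NuRD complex, 9 had a promoter peak, of which 2 were called lower and 0 higher, with a median difference of −0.27. Over the promoters of all 12381 coding genes with a peak 9.97% were called lower and 0.856% higher, with a median of −0.13. Hdac1, a histone deacetylase, read 6.96 and 7.09 in wild type against 6.49 and 6.54 in Hox13-/- (difference −0.51, SE 0.127, limma adjusted p = 8.1e-04). Gatad2b read 8.27 and 8.27 against 7.96 and 7.92 (difference −0.33, limma adjusted p = 0.039). Gatad2b was not called with quantile (−0.24, limma adjusted p = 0.11) or cyclic loess scaling (−0.20, 0.23), nor without any 1 library (−0.35 to −0.31, limma adjusted p from 0.11 to 0.19). Those 2 scalings put the median of the 9 at −0.14 and −0.10. Mta1 was called lower with median centring (−0.34, limma adjusted p = 0.0498) and cyclic loess scaling (−0.35, 0.047). The other seven were Chd4, Hdac2, Rbbp4, Mta1, Mta2, Mbd3 and Gatad2a, with differences from −0.30 to −0.07 that were not called at the scaling reported.

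The genes most like a Sall promoter were sought by the Euclidean distance over the 4 rLog values to the strongest start-site peak of each Sall gene, among 12378 other promoters. They were Thnsl1, Tmem33 and Slf1 for Sall1, Chst10, Ifitm1 and Zmpste24 for Sall3, and Ap1b1, Slc27a2 and Cdkl4 for Sall4, at distances of 0.06 to 0.13. As 21 to 43 promoters lay within 0.2 of each, the order among them carries little. The Sall1 peak was more accessible than 69.3% of coding promoters, that of Sall3 than 36.4% and that of Sall4 than 19.3%. The other promoters were each represented by the peak nearest a start site, not by the strongest. At Sall1 and Sall4 the nearest peak was weaker, with a mean rLog of 3.06 and 4.27 against 7.07 and 4.78. For these genes the ranks and the most alike promoters therefore compare unlike peaks.

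Across the table the replicates correlated with a squared Pearson correlation of 0.986 in wild type and 0.987 in Hox13-/-, over peaks, which are not independent. The tissue label was checked on promoter peaks. All 4 limb mesenchyme markers (Prrx1, Twist1, Msx1, Pdgfra) had one, against 1 of 4 each for ectoderm and ridge (Epcam), endothelium (Kdr), blood (Klf1) and muscle precursors (Myod1). The mean rLog was 5.71 to 6.99 at the mesenchyme markers and 2.72 at Epcam, 3.07 at Klf1 and 4.23 at Myod1, but 6.69 at Kdr, which lies within the range of the mesenchyme markers. None of these 4 other peaks was called. Summed over the mesenchyme markers the rLog values were 25.1 to 25.4 in wild type and 25.3 to 25.4 in Hox13-/-, and only Twist1, at −0.40, was called, though not without Hox13-/- replicate 2 (−0.21, limma adjusted p = 0.42) or wild-type replicate 2 (−0.36, 0.11). The start-site peak of Hoxa13 differed by −0.08 and was not called, and that of Hoxd13 differed by −0.52 (limma adjusted p = 6.1e-04) and was not called without Hox13-/- replicate 2 (−0.41, 0.056). The sources used here do not give which bases the null alleles remove, so these peaks do not check the genotype.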

How the data were processed

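Chromatin accessibility was measured by ATAC-seq in 2 wild-type and 2 Hox13-/- distal forelimb libraries. The authors aligned reads to mm10 with bowtie2 2.3.1, called peaks in each library against an input with MACS2 2.1.1.20160309, merged the lists with HOMER 4.9.1 and deposited, for 61954 peaks on 19 autosomes, rLog values from DESeq2, which are on a log2 scale. They also deposited a text column that names the libraries behind each merged peak, and a fold change, p and adjusted p per peak, which were not used. The handling of duplicate reads, blacklisted regions and the Tn5 offset is not given in the sources used here. The deposited values carry no read numbers, so a peak's depth cannot be stated and intervals for counting error are left out. Nothing says that replicate numbers share a litter or day. The 2 proximal libraries of the study were not analysed here.

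The genotypes were compared by limma (3.58.1, R 4.3.3) over all 61954 peaks together, with a variance trend on mean rLog, two-sided tests and Benjamini-Hochberg adjustment. The procedure was tested on simulated data. With 2 libraries against 2 the smallest two-sided p of a permutation is 0.333, while limma draws its p from a spread estimated over all peaks. Start sites came from all GENCODE M21 transcripts, promoter entries from RefSeq (GRCm38.p6), which held 3 for Sall1, and motifs from the GRCm38 genome with pysam 0.24.0. Coordinates are counted from 1. Named peaks were those within 1 kb of a start site or in the body of a Sall gene, the 3 with the smallest p per gene and direction among called peaks with the genotypes apart, those beyond the fold threshold, and the strongest per gene. A peak that this rule also names, at Sall1, is not reported here. Also named were the start-site peaks of Hoxa13 and Hoxd13, the listed genes, and the 3 promoters nearest in value to each Sall promoter. The members and lists were chosen with earlier results of these data known.

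Alternatives were 3 other scalings, no variance trend, the upper 75% or 50% of peaks by mean rLog, an adjusted p under 0.01, a difference beyond 1, the replicate number as a block, gene starts in place of all start sites, the whole peak or YYHRTAAA for the motif, and leaving out each library.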

Additional observations from a re-analysis of the deposited data

How the results depend on the processing

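With 2 libraries per genotype and no read numbers, small differences at weak peaks are not resolved. Between lower and higher, the counts moved by more than 1.5 times as follows. Sall1 had 2 lower in the upper 75% of peaks by mean rLog, 0 in the upper 50% and 1 at an adjusted p under 0.01. Sall3 had 6 higher with median centring, 5 in the upper 50%, and 3 higher and 1 lower at an adjusted p under 0.01. Sall4 had 2 lower with median centring, quantile or cyclic loess scaling, or without the variance trend, and 3 higher at an adjusted p under 0.01. A difference beyond 1 left 1 higher and 0 lower at Sall1 and 0 in either direction at Sall3 and Sall4. Leaving out 1 library gave 0 to 2 lower and 4 to 6 higher at Sall1, 2 to 3 lower and 3 to 7 higher at Sall3, and 1 lower and 3 to 6 higher at Sall4. Gene starts in place of all start sites changed no count.

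Of the 16 named peaks that were called, 10 kept their call in every alternative fitted, 6 did not, and 0 turned. The differences that turned in sign were not called as reported, and that at 5.6 kb in Sall3 was called without wild-type replicate 2 (0.46, limma adjusted p = 0.035). Median centring gave −0.015 at the Sall1 peak 0.1 kb upstream and −0.019 at the Sall3 peak 0.5 kb downstream. Leaving out 1 library gave −0.0066 to 0.045 at the former, −0.053 to 0.084 at the latter, −0.10 to 0.26 at 1.4 kb in Sall1, −0.033 to 0.38 at 1.4 kb and −0.020 to 0.46 at 5.6 kb in Sall3, and, in Sall4, −0.15 to 0.071 at 0.5 kb, −0.12 to 0.23 at 0.2 kb and −0.29 to 0.064 at 0.1 kb. The causes were not tested.

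The labels number the replicates of both genotypes 1 and 2. The replicate 1 minus 2 differences of the genotypes correlated at −0.011 across peaks. That shows no common shift by replicate number across peaks, but cannot tell whether libraries of 1 number shared a litter or day. With the replicate block 6 higher and 4 lower at Sall1, 10 and 6 at Sall3 and 6 and 1 at Sall4 were called, the same 33 peaks. YYHRTAAA in place of CAATAAA raised the share of Sall peaks with a match to 24.3%, and the whole peak to 8.55%, which is within the interval of the share reported.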
